A study of Homo sapiens with 6 samples.

Results

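The genes described here write, copy, erase and read the 2 best known heritable repressive marks of human chromatin, DNA methylation and the histone marks of the Polycomb complexes. They were chosen by name and function, and 38 genes were listed. Every probe set that the array annotation gives to a listed gene alone was taken. Of the 38, 35 had a probe set of their own, with 97 probe sets in all, out of 19775 genes so measured on the array. BMI1 was measured only by a probe set that it shares with the read-through gene COMMD3-BMI1, and RNF2 and CBX8 were not analysed here. SUZ12 and PHC1 each had a further probe set shared with another gene, which is not among the 97. The cells were K562, a human line from a chronic myeloid leukemia. The 4 CTCF arrays came from KCTCF-D11, a stable K562 transfectant carrying a pCDNA expression vector for CTCF. The 2 empty vector arrays came from KpCDNA, K562 stably transfected with the same vector without CTCF, and neither line had any further treatment. Each line is a single named transfectant, and the labels do not say that the arrays of a line came from separate cultures, so the p-values speak only of the variation among these arrays.

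DNA methylation in mammals is laid down on cytosines of CpG sites by de novo methyltransferases and copied after replication by a maintenance enzyme that is guided to hemimethylated sites. TET enzymes oxidise the methyl group, base excision repair can then remove the oxidised base, and methyl-CpG binding proteins read the mark. Polycomb repressive complex 2 (PRC2) methylates histone H3 and Polycomb repressive complex 1 (PRC1) ubiquitylates histone H2A, and chromodomain subunits of PRC1 bind the mark that PRC2 leaves. CTCF is a zinc finger protein that organises chromatin loops and insulates domains, and CpG methylation within its site can block its binding.

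Values are the deposited intensities, which are linear and relative, so they compare 1 probe set between arrays and not 1 gene with another. Changes are log2 differences of intensity plus 16, CTCF minus empty vector, from a limma model that also holds the array set. The array set is in the model because the 6 arrays fell into 2 sets by their spike-in controls. The smaller set held CTCF array 4 and empty vector array 1, and the larger set the other 4 arrays. The sample labels name no such sets, and what set them apart was not tested. Correlations between arrays were 0.966 to 0.991 within a set and 0.877 to 0.907 between sets. The log2 excess of the 3′ over the 5′ control of ACTB was 0.91 on CTCF array 4 and 0.81 on empty vector array 1, and 0.22 to 0.28 on the other arrays. An array set term with an adjusted p below 0.05 was found for 41 of the 97 member probe sets (42.3%), against 40.9% of all probe sets. Array medians lay between 28.8 and 34.2.

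The overexpressed gene itself was measured first. CTCF (probe set 202521_at) had an intensity of 1311, 1614, 1332 and 1332 on the CTCF arrays and of 457 and 634 on the empty vector arrays. The groups did not overlap, and CTCF rose by 1.29 ± 0.16 (log2, SE), 2.44-fold, with an adjusted p of 0.0288 in limma. Without the array set in the model the change was 1.34 and its adjusted p was 0.199. The line was checked against its markers: 7 of 8 K562 markers were measured, and their summed intensity was 26502 to 32706 on the CTCF arrays and 19401 to 20917 on the empty vector arrays. One of the 7, the embryonic globin HBZ, rose by 1.58 ± 0.13 (adjusted p 0.0166), with intensities of 6433 to 7672 on the CTCF arrays and 1929 to 2591 on the empty vector arrays. The erythroid factor GATA1 had 1012 to 1228 on the CTCF arrays and 1311 and 1314 on the empty vector arrays. It was lower on every CTCF array (-0.25 ± 0.13, adjusted p 0.407) and the only measured K562 marker below 0. The rest were above 0 without passing: LMO2 0.55, HBE1 0.41, TFRC 0.31, TAL1 0.22 and KLF1 0.19. Of 6 markers of other cell types 5 were measured, none past the threshold, with sums of 1994 to 7948 on the CTCF arrays and 1709 to 8126 on the empty vector arrays. The upper ends of these sums came from COL3A1, which read 6114 on CTCF array 4 and 6627 on empty vector array 1, against 146 to 165 on the arrays of the larger set. EPCAM read 1660, 2139, 1968 and 1666 on the CTCF arrays and 1307 and 1410 on the empty vector arrays, bright everywhere and higher on every CTCF array (0.40 ± 0.15, adjusted p 0.236). ALB stayed between 3.58 and 31.4 and CD3E between 22.6 and 54.3 on all 6 arrays. The part of the array sets or of the erythroid markers in any change below was not tested, and in bulk RNA fewer cells of a kind and less RNA per cell cannot be told apart.

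Among the DNA methylation and Polycomb genes 1 probe set passed the test, for PHF19, a PRC2 accessory subunit, and it was higher in CTCF cells. That is 1 of 97 (1.03%), against 1.86% of all 54613 probe sets (0.538% higher and 1.32% lower in CTCF cells) and 3.52% of those at or above the median level. The split over all probe sets moved with scaling, with 294 higher and 723 lower as deposited, 508 and 692 after quantile normalization and 528 and 915 after median centring. By gene, with the brightest probe set of each, 1 of 35 passed, against 2.57% of all genes. At an unadjusted p under 0.05 in limma there were 33 of 97 probe sets (34%), 19 higher and 14 lower, against 17.6% of all probe sets. By gene there were 15 of 35 (42.9%), 7 higher and 8 lower, against 21.4% of all genes. The members are brighter than the array at large: among the 78 of their probe sets at or above the median level 35.9% had an unadjusted p under 0.05, against 28.9% of all such probe sets. The groups did not overlap for 18 probe sets (18.6%), 10 higher and 8 lower in CTCF cells, against 13.2% of all probe sets (6.06% higher and 7.18% lower). At or above the median level that share was 20.5% for members and 18.6% for all. A change of 2-fold or more was seen for 4 of 97 member probe sets, against 2.56% of all. The median change was -0.08 over the 35 member genes and -0.02 over all genes. The share of members called at the adjusted threshold thus lay near the background, while the share at an unadjusted p under 0.05 lay above it.

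**Figure D1:**
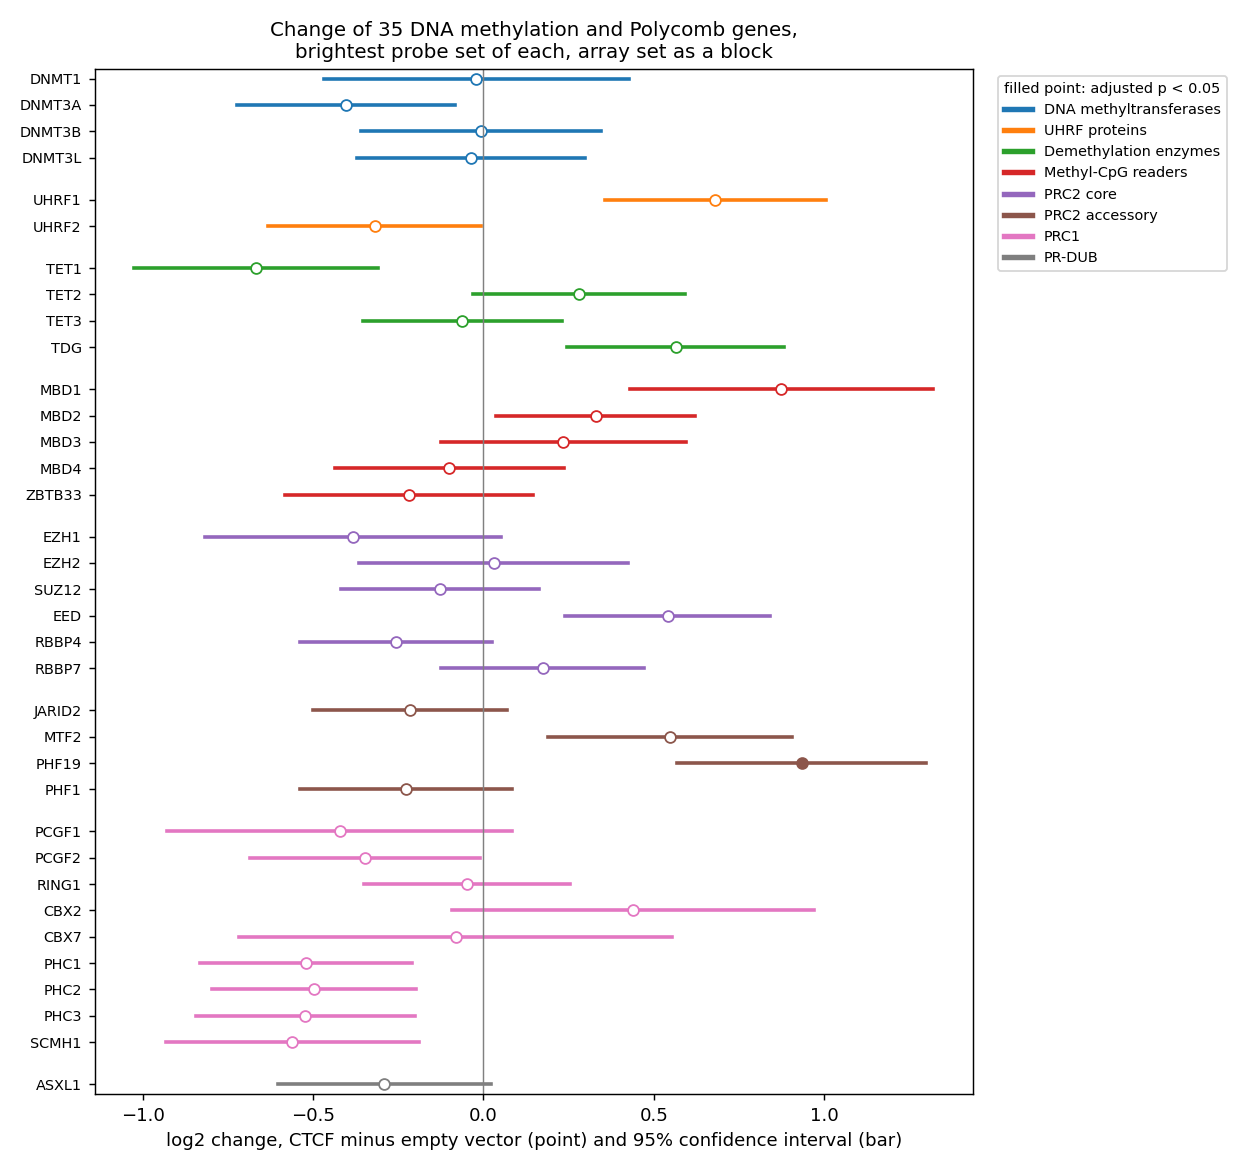
Log2 change, CTCF minus empty vector, of the brightest probe set of each of 35 genes (point) with its 95% confidence interval (bar), coloured by role, from limma with the array set as a block. PHF19, at 0.93, is the only filled point (adjusted p below 0.05). The unadjusted intervals of UHRF1, TDG, MBD1, MBD2, EED and MTF2 also lie above 0, and those of DNMT3A, UHRF2, TET1, PCGF2, PHC1, PHC2, PHC3 and SCMH1 lie below it.

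None of the 6 probe sets of the enzymes that write DNA methylation passed limma's adjusted threshold. An unadjusted p under 0.05 was found for 1 (16.7%), against 17.6% of all probe sets. DNMT1, the maintenance methyltransferase, had intensities of 4638, 3395, 3231 and 3773 on the CTCF arrays and of 3796 and 3780 on the empty vector arrays. Its change was -0.02, with a 95% confidence interval from -0.47 to 0.43, and the CTCF arrays lay on both sides of the empty vector arrays. DNMT3B, a de novo enzyme, had 2253, 1860, 1802 and 1856 on the CTCF arrays and 1763 and 2048 on the empty vector arrays, a change of -0.01 (interval -0.36 to 0.35). DNMT3A, the other de novo enzyme, read by its brightest probe set (222640_at) 172, 143, 146 and 285 on the CTCF arrays and 402 and 201 on the empty vector arrays. CTCF was lower within each array set, with differences of -0.47 in the smaller and -0.36 in the larger, but the change of -0.40 ± 0.13 did not pass (adjusted p 0.186), and the groups overlapped because the smaller set read higher. The other DNMT3A probe sets gave -0.13 and -0.09. DNMT3L, a catalytically inactive partner of the de novo enzymes that is restricted largely to germ cells, stood at 1 to 5.16 on all arrays, near the lowest values of the table.

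UHRF1, which binds hemimethylated DNA and brings DNMT1 to it, was among the members closest to the threshold. Its probe set 225655_at read 1842, 2035, 1783 and 1491 on the CTCF arrays and 1039 and 1082 on the empty vector arrays. Every CTCF array was above both empty vector arrays, and the change of 0.68 ± 0.13 (1.60-fold) had an adjusted p of 0.0685. Within the sets the difference was 0.52 in the smaller and 0.79 in the larger. UHRF2, its relative, went the other way with 494, 486, 419 and 352 on the CTCF arrays and 438 and 589 on the empty vector arrays, a change of -0.32 ± 0.13 (adjusted p 0.274). DNMT1 and the protein that recruits it therefore had different values here, -0.02 and 0.68, and the difference between them was not tested.

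**Figure D2:**
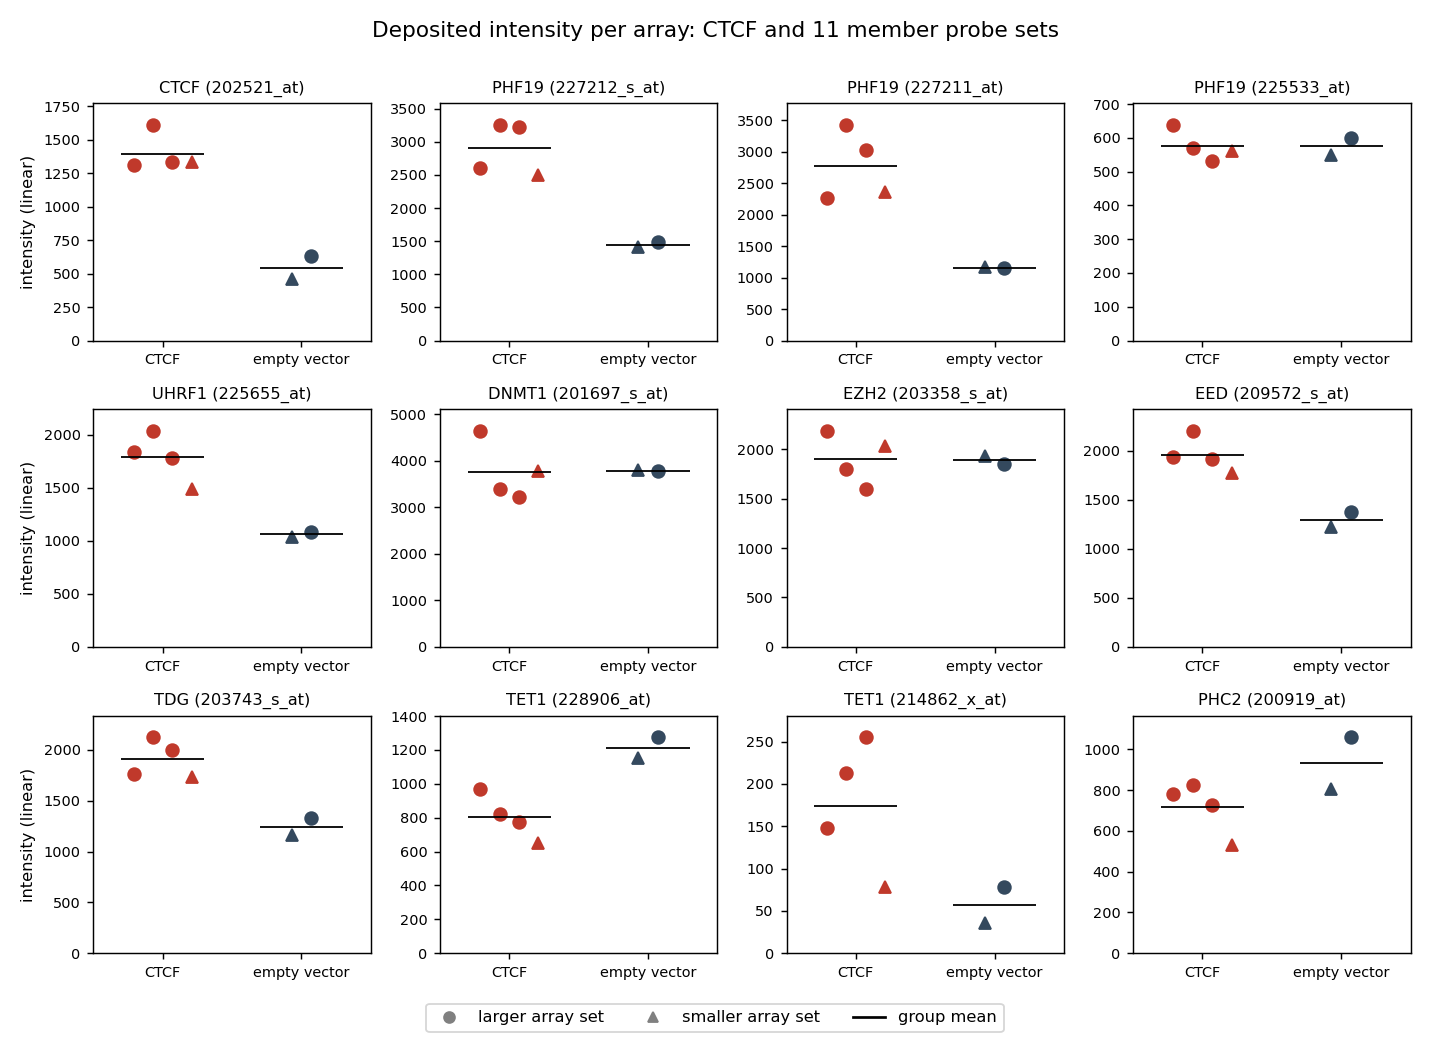
Deposited linear intensity of CTCF and of 11 member probe sets on each array, CTCF arrays left and empty vector arrays right, with triangles for the smaller array set, circles for the larger and a line at each group mean. The CTCF arrays of PHF19 probe sets 227212_s_at and 227211_at, of UHRF1, EED and TDG all lie above the empty vector arrays, while those of DNMT1 and EZH2 lie on both sides, and the TET1 panels show opposite directions.

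The enzymes that remove methylation did not move as a group. Of their 10 probe sets 0 passed in limma and 6 (60%) had an unadjusted p under 0.05, against 17.6% of all probe sets. In CTCF cells 4 of these 6 were higher and 2 were lower. TET1, a methylcytosine dioxygenase, was measured by a pair of probe sets that disagreed. The brighter one, 228906_at, read 967, 821, 773 and 653 on the CTCF arrays and 1152 and 1274 on the empty vector arrays, a change of -0.67 ± 0.15 (adjusted p 0.0859). The dimmer one, 214862_x_at, read 148, 213, 255 and 78.5 on the CTCF arrays and 35.8 and 78.4 on the empty vector arrays, a change of 1.07 ± 0.23 (adjusted p 0.0853). Neither probe set's groups overlapped, though for the dimmer one CTCF array 4 and empty vector array 2 were almost equal. The suffix x in a probe set name marks probes that can also match other transcripts. The authors' deposited table lists the dimmer probe set, with a fold change of 3.06, and not the brighter one. TET2 (227624_at), a related dioxygenase often mutated in myeloid malignancy, read 147, 164, 149 and 48.6 on the CTCF arrays and 31.8 and 133 on the empty vector arrays. Low values fell on both arrays of the smaller set, and the change was 0.28 ± 0.13 (adjusted p 0.335). TET3 (235542_at), the third dioxygenase, changed by -0.06, with an interval from -0.35 to 0.23. Its dimmer probe sets were also below 0, without passing: 214754_at gave -0.35, and 1554641_a_at, at 2.38 to 11.2, gave -0.43. TDG, the glycosylase that excises the oxidised bases made by TET enzymes, read 1760, 2122, 2002 and 1735 on the CTCF arrays and 1159 and 1325 on the empty vector arrays (203743_s_at). All CTCF arrays were higher, and the change was 0.56 ± 0.13 (adjusted p 0.0961), with 0.62 for its second probe set, whose groups overlapped.

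Of the 18 probe sets of the methyl-CpG readers 0 passed in limma and 5 (27.8%) had an unadjusted p under 0.05, against 17.6% of all probe sets. In CTCF cells 4 of these 5 were higher. The median over the 5 reader genes was 0.23, and 0.09 with the probe sets of each gene averaged. MBD1, a repressor that binds methylated CpG, was higher for all 5 of its probe sets with the array set in the model, from 0.11 to 0.87. Only 203353_s_at and 226862_at were above 0 in both array sets. In the smaller set 1555611_s_at, 208595_s_at and 241813_at gave -0.38, -0.04 and -0.03. The brightest MBD1 probe set, 203353_s_at, read 299, 431, 391 and 125 on the CTCF arrays and 69.3 and 180 on the empty vector arrays. CTCF array 4 lay between the empty vector arrays, but within each array set CTCF was higher, by 0.72 in the smaller and 0.98 in the larger, and the change of 0.87 ± 0.18 had an adjusted p of 0.0781. MBD2 (202484_s_at), which reads methylated DNA for the nucleosome remodelling and deacetylase complex, had a change of 0.33 ± 0.12 (adjusted p 0.231). MBD3, a subunit of the same complex that binds methylated CpG weakly in mammals, gave 0.23 for its brightest probe set (41160_at, interval -0.13 to 0.60). Its dim probe set 222183_x_at gave 1.12, from 53.2, 73.5, 70.2 and 15.3 on the CTCF arrays and 9.25 and 9.71 on the empty vector arrays (adjusted p 0.141). The third MBD3 probe set gave -0.02. MBD4, a glycosylase that repairs deaminated methylcytosine, gave -0.10, 0.11 and -0.08 for its bright probe sets and -0.78 for 214048_at (adjusted p 0.211). ZBTB33, also called Kaiso, a zinc finger protein that binds methylated DNA, gave -0.22 for 226255_at (interval -0.58 to 0.15).

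Of the 18 probe sets of the PRC2 core 0 passed in limma, and 4 (22.2%) had an unadjusted p under 0.05, against 17.6% of all probe sets. The median over the 6 core genes was -0.05. EZH2, the main histone H3 methyltransferase of dividing cells, read 2184, 1798, 1598 and 2037 on the CTCF arrays and 1927 and 1850 on the empty vector arrays. The CTCF arrays lay on both sides of the empty vector arrays, and the change was 0.03, with an interval from -0.37 to 0.42. SUZ12, a scaffold without which the complex falls apart, read 2152, 2050, 1900 and 2532 on the CTCF arrays and 2812 and 2196 on the empty vector arrays (212287_at), a change of -0.13 (interval -0.42 to 0.16). EED, the subunit that binds the complex's own mark, was farthest from 0 among the core genes by brightest probe set. Its bright probe set 209572_s_at read 1943, 2203, 1916 and 1771 on the CTCF arrays and 1221 and 1375 on the empty vector arrays. The groups did not overlap, and the change of 0.54 ± 0.12 (1.46-fold) had an adjusted p of 0.0934, with 0.53 in the smaller and 0.55 in the larger array set. Its dim probe set, at 7.74 to 33.2, gave -0.14.

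EZH1, the alternative methyltransferase subunit, had 5 probe sets that spread from -0.56 to 0.62. The brightest, 32259_at, read 548, 430, 378 and 744 on the CTCF arrays and 923 and 610 on the empty vector arrays (-0.38 ± 0.18, adjusted p 0.343). The histone chaperones RBBP4 and RBBP7 also serve in deacetylase and remodelling complexes. RBBP7 read 5112, 4884, 4465 and 4349 on the CTCF arrays and 3713 and 4372 on the empty vector arrays, a change of 0.17 (interval -0.12 to 0.47). RBBP4 had 6 probe sets, and its 2 brightest gave -0.26 and -0.14. The largest member difference downward was RBBP4 239071_at, with 223, 200, 119 and 213 on the CTCF arrays and 323 and 528 on the empty vector arrays, a change of -1.13 ± 0.32 (adjusted p 0.143).

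PRC2 accessory subunits held the only called member. Of their 13 probe sets 1 passed in limma and 7 (53.8%) had an unadjusted p under 0.05, against 17.6% of all probe sets. In CTCF cells 5 of these 7 were higher and 2 were lower. PHF19 is one of the Polycomb-like proteins, with MTF2 and PHF1, which help PRC2 to reach its sites and which carry a Tudor domain that binds methylated histone H3. Its probe set 227212_s_at read 2611, 3258, 3229 and 2499 on the CTCF arrays and 1408 and 1490 on the empty vector arrays. The lowest CTCF array was well above the highest empty vector array, and PHF19 rose by 0.93 ± 0.15 (1.91-fold, adjusted p 0.048). A second probe set, 227211_at, read 2260, 3431, 3021 and 2356 on the CTCF arrays and 1166 and 1149 on the empty vector arrays, a change of 1.18 ± 0.20 (2.27-fold, adjusted p 0.0543). Both differed in both array sets, by 0.82 and 1.00 in the smaller and 1.01 and 1.30 in the larger. The third probe set, 225533_at, read 639, 570, 533 and 560 on the CTCF arrays and 550 and 601 on the empty vector arrays, with a change of -0.02 (interval -0.34 to 0.29), so the 3 probe sets given to the gene did not move alike. The authors' deposited table lists the first 2 of them, with fold changes of 1.99 and 2.40.

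The call for PHF19 sat just inside the threshold. Leaving out any 1 CTCF array put its change between 0.9 and 1.01 and its limma adjusted p between 0.0525 and 0.268. Without empty vector array 1 the change was 1.01, and without empty vector array 2 it was 0.82. These equal the within-set differences above by construction, as does the 1.01 without CTCF array 4. Without the array set in the model the change was 0.98 with an adjusted p of 0.304, and after quantile normalization it was 0.97 with an adjusted p of 0.0556. In that last fit the 1 member probe set called was MBD1 203353_s_at (0.99, adjusted p 0.0449) instead.

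MTF2 had the same direction as PHF19 for 4 of 5 probe sets. Its brightest, 203345_s_at, read 1169, 1465, 1335 and 1484 on the CTCF arrays and 912 and 958 on the empty vector arrays (0.55 ± 0.15, adjusted p 0.129). PHF1, the third Polycomb-like protein, gave -0.23 for 40446_at and -0.92 ± 0.20 for the less bright 202928_s_at, which read 81.6, 61.4, 58.8 and 48.2 on the CTCF arrays and 78.7 and 169 on the empty vector arrays (adjusted p 0.0827). The Polycomb-like genes thus had values on both sides of 0. JARID2, which joins a different form of PRC2 and can stimulate it, gave -0.22 and -0.35 for its bright probe sets and 0.47 for a probe set at 11.6 to 39.6. JARID2 203298_s_at read 649, 658, 588 and 550 on the CTCF arrays and 700 and 815 on the empty vector arrays (adjusted p 0.198).

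The promoters of PHF19 and UHRF1, the members whose brightest probe sets had the lowest p-values upward, were searched for the letters of a site for E2F factors, which control many genes of dividing cells. The search was chosen after the values were seen. The sequences are RefSeq windows of GRCh38.p14, 250 bases up to the base before the annotated start, printed 5′ to 3′ on the strand of the gene, and RefSeq windows were found for 35 of the 38 genes. Capitals mark a match to TTTCCCGC on either strand. PHF19 is on the minus strand at chr9:120877189-120877438, with the match starting 152 bases before the start. UHRF1 is on the plus strand at chr19:4909251-4909500, with the match 14 bases before the start. SUZ12, whose change was -0.13, is shown beside them because it is the third and last member with a match, on the plus strand at chr17:31936757-31937006 and 189 bases before the start.
PHF19: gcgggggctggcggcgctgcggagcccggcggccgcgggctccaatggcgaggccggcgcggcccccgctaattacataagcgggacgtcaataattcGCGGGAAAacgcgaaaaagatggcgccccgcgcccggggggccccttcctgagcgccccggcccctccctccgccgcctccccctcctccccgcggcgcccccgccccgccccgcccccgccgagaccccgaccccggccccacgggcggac
UHRF1: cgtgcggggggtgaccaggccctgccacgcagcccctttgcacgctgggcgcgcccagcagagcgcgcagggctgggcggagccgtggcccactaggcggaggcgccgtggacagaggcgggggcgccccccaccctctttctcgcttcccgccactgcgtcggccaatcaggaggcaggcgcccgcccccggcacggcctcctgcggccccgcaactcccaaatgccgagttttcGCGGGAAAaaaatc
SUZ12: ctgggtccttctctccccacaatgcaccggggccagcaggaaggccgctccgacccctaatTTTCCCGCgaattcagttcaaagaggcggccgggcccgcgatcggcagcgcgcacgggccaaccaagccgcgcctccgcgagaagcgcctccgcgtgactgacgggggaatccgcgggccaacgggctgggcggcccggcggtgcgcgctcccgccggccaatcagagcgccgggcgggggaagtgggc
The letters occurred in 1.39% of 35116 promoter windows of the same length (488) and in 3 of the members' 56 windows. Letters from the core of the CTCF motif, CCAGNNGGC on either strand, occurred in 9.82% of all windows (3449). They were found in 5 of the members' 56 windows and not in the 3 windows printed. These 5 belong to DNMT3A, TET3, MBD3, EZH1 and SCMH1, whose changes by brightest probe set were -0.40, -0.06, 0.23, -0.38 and -0.56. The 56 member windows held a median of 25 CpG dinucleotides, against 11 for all windows. A match of letters is a description and not a site.

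Most PRC1 genes had values below 0, and none of their probe sets passed. By brightest probe set 8 of 9 genes were below 0, with a median of -0.42, against -0.02 over all genes. Over all 24 probe sets the median was -0.26, and with the probe sets of each gene averaged it was -0.30 with 6 of 9 genes below 0. Of the 24 probe sets 0 passed in limma, and 6 (25%) had an unadjusted p under 0.05, against 17.6% of all probe sets. In CTCF cells 5 of these 6 were lower. The medians within the array sets were -0.50 in the smaller and -0.37 in the larger. An array set term with an adjusted p below 0.05 was found for 7 of the 9 genes (77.8%), against 42% of all genes. With no array set in the model the median was -0.35. In that fit 0 of 9 genes had an unadjusted p under 0.05 in limma, and 1874 of all 19775 genes had one. With the array set it was 5 of 9 (55.6%), against 21.4% of all genes. After quantile normalization the median was -0.32 and 6 of 9 genes were below 0, and after median centring it was -0.37 with 8 of 9.

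The polyhomeotic proteins PHC1, PHC2 and PHC3, which polymerise through a SAM domain and cluster PRC1, gave -0.52, -0.50 and -0.52 by brightest probe set. PHC2 (200919_at) read 783, 826, 728 and 529 on the CTCF arrays and 804 and 1059 on the empty vector arrays (adjusted p 0.109). PHC1 (225958_at) read 93.2, 88, 103 and 59.6 on the CTCF arrays and 102 and 134 on the empty vector arrays (adjusted p 0.107). PHC3 (226508_at) read 344, 316, 285 and 199 on the CTCF arrays and 274 and 478 on the empty vector arrays (adjusted p 0.115). In all 3 genes CTCF was lower within each array set, while the groups overlapped across sets. The other PHC1 and PHC2 probe sets were below 0, from -0.34 to -0.70, but 3 of the 4 other PHC3 probe sets, all dim, were above 0. The probe set 200901_s_at, which PHC1 shares with M6PR, gave 0.09 ± 0.16. SCMH1, a relative of the fly gene Sex comb on midleg that also carries a SAM domain, read 371, 357, 283 and 189 on the CTCF arrays and 291 and 496 on the empty vector arrays (-0.56 ± 0.15, adjusted p 0.132).

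Of the subunits that define the PRC1 forms, PCGF2 had values below 0 for all 4 of its probe sets, -0.24 to -0.36. All 4 carry the suffix x, so their probes can also match other transcripts. The brightest PCGF2 probe set, 214239_x_at, read 367, 400, 377 and 300 on the CTCF arrays and 455 and 439 on the empty vector arrays (-0.35 ± 0.14, adjusted p 0.269). BMI1, the PCGF protein of canonical PRC1 in blood stem cells, could be read only through 202265_at, shared with COMMD3-BMI1. That probe set read 2245, 2286, 2132 and 1949 on the CTCF arrays and 1761 and 1892 on the empty vector arrays. The groups did not overlap, and the change was 0.20 ± 0.11 (adjusted p 0.452). PCGF1, found in a variant PRC1 with BCOR and KDM2B, showed the array sets plainly in 210023_s_at: 201, 308, 306 and 1160 on the CTCF arrays and 1651 and 349 on the empty vector arrays. The high values were the arrays of the smaller set, and the change with the set in the model was -0.42 ± 0.21 (adjusted p 0.369).

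RING1, an E3 ligase that ubiquitylates histone H2A, gave -0.05 and 0.14 (intervals -0.35 to 0.26 and -0.14 to 0.41). CBX7, a chromodomain reader, gave -0.08 with a wide interval from -0.72 to 0.55. CBX2, another chromodomain reader, gave 0.44 for its brightest probe set, 226473_at (adjusted p 0.375). Its probe set 240084_at read 131, 130, 141 and 153 on the CTCF arrays and 97.5 and 88.2 on the empty vector arrays, with no overlap and a change of 0.55 ± 0.11 (adjusted p 0.0786). By brightest probe set CBX2 was the 1 PRC1 gene of 9 above 0. The shared BMI1 and PHC1 probe sets, 1 of the RING1 probe sets and 3 of the PHC3 probe sets were above 0 as well.

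ASXL1, a cofactor of the deubiquitylase that removes the PRC1 mark and a gene often mutated in myeloid disease, had 6 probe sets with 5 below 0. The brightest, 212237_at, read 402, 447, 373 and 279 on the CTCF arrays and 337 and 507 on the empty vector arrays (-0.29, adjusted p 0.318). The sixth, 244519_at, read 435, 495, 488 and 291 on the CTCF arrays and 125 and 332 on the empty vector arrays, a change of 0.74 ± 0.17 (adjusted p 0.101).

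**Figure D3:**
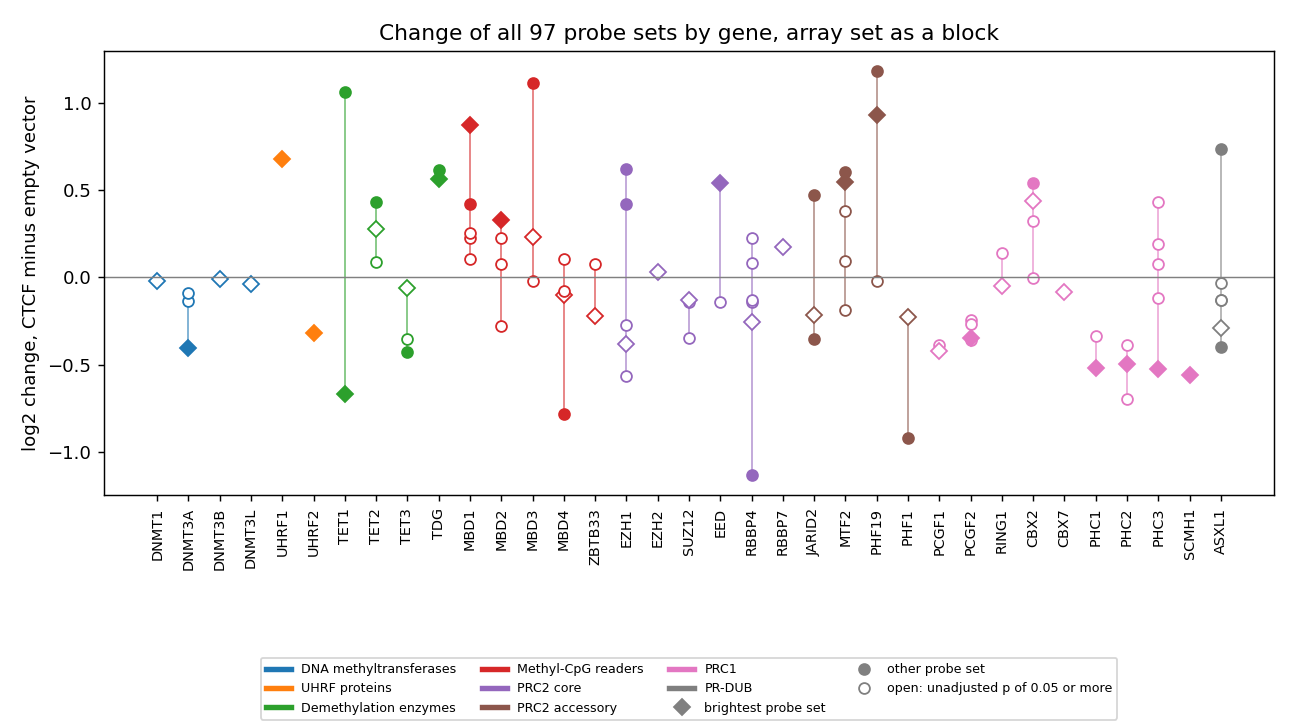
Log2 change, CTCF minus empty vector, of all 97 probe sets, one column per gene, with diamonds for the brightest probe set of a gene and filled symbols for an unadjusted p under 0.05. TET1, JARID2 and ASXL1 have filled symbols on both sides of 0, and the 3 PHF19 symbols lie at 1.18, 0.93 and -0.02.

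How far the probe sets of a gene told the same story varied. Of 26 members with several probe sets 11 had all on one side of 0 and 15 had both signs. TET1, JARID2 and ASXL1 had probe sets past an unadjusted p of 0.05 on both sides. When all probe sets of a gene were averaged, 2 of 35 member genes passed, against 4.64% of all genes. These were PHF19 (0.70 ± 0.12, adjusted p 0.0313) and UHRF1 (0.68 ± 0.12, adjusted p 0.0351), which has 1 probe set, so its value is the same and only the number of tests and the pooled variance differ. In that fit PHC3 gave 0.01, ASXL1 -0.04 and EED 0.20, so their brightest probe sets stand farther from 0 than their averages.

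**Figure D4:**
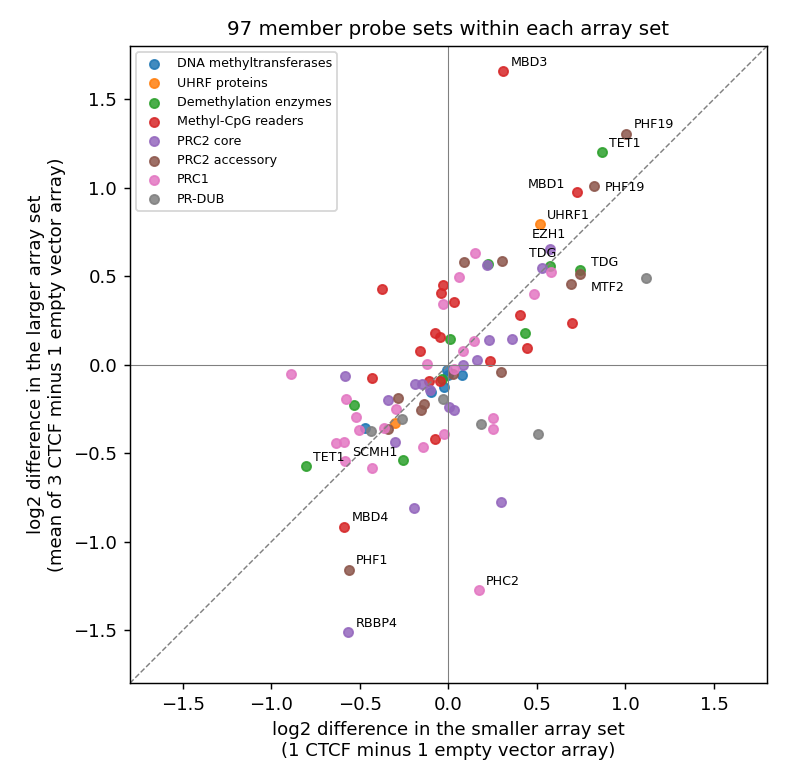
Log2 difference, CTCF minus empty vector, of the 97 member probe sets in the smaller array set (horizontal, 1 array of each group) and in the larger (vertical, 3 CTCF arrays and 1 empty vector array), with the dashed line where both are equal. 75 of the 97 points have the same sign in both sets, against 33255 of all 54613 probe sets. The UHRF1 and TDG points and 2 of the 3 PHF19 points lie in the upper right.

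The array sets cross the groups, so each gives its own difference. Of 97 member probe sets 75 had the same sign in both sets, against 33255 of all 54613. At or above the median level it was 63 of 78 member probe sets and 19603 of all 27307. Of 35 genes by brightest probe set 30 had the same sign, against 12935 of all 19775. The sets share no array but the smaller one has a single array of each group, so its values have no spread. The median over the member genes was -0.11 in the smaller and -0.08 in the larger set. With no array set in the model, limma called 0 member probe sets, with a lowest adjusted p of 0.295, and it called 0.011% of all probe sets. An unadjusted p under 0.05 was found there for 13 of 97 member probe sets and for 3729 of all 54613.

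More permissive settings called more members, and more of the array with them. With a variance trend and robust moderation 9 of 97 member probe sets passed (9.28%), against 4.7% of all. With dim probe sets left out 8 of 78 passed (10.3%), against 9.68% of all that remained. Besides PHF19, those called in at least 1 of these fits were UHRF1, both TET1 probe sets, TDG 203743_s_at, MBD1 203353_s_at, EED 209572_s_at, PHF1 202928_s_at and CBX2 240084_at.

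Other genes of the same pathways gave a like picture. Of 51 measured, 0 were called higher and 1 was called lower in CTCF cells (1.96%, against 2.57% of all genes), with a median change of -0.04. At an unadjusted p under 0.05 there were 15 (29.4%), against 21.4% of all genes. The gene that fell was IDH2, the mitochondrial isocitrate dehydrogenase whose product 2-oxoglutarate the TET enzymes need. IDH2 (210046_s_at) read 738, 732, 637 and 484 on the CTCF arrays and 963 and 1298 on the empty vector arrays, and fell by 0.91 ± 0.13 on the log2 scale (adjusted p 0.0377). Without the array set in the model its change was -0.79 with an adjusted p of 0.551, and no gene of this list passed with a pseudocount of 1 or with any 1 array left out. The cytosolic relative IDH1 read 2433, 1418, 1208 and 2048 on the CTCF arrays and 3426 and 3680 on the empty vector arrays, a change of -1.01 ± 0.31 (adjusted p 0.168), and the authors' deposited table lists it with a signed fold change of -2.01. The CTCF arrays were below both empty vector arrays for both enzymes, with a wide spread among the CTCF arrays of IDH1. IDH1 is named because it is in that table. Next by p downward were the repair scaffold XRCC1 (-0.60, adjusted p 0.0629) and the PRC1 partners BCOR (-0.45) and RYBP (-0.50), both with an adjusted p of 0.156. Upward they were the uracil glycosylase SMUG1 (0.72, adjusted p 0.0629), KDM2B, which brings a variant PRC1 to CpG islands (0.71, adjusted p 0.081), and the Polycomb-related L3MBTL2 (0.57, adjusted p 0.136).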

How the data were processed

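RNA of 4 CTCF and 2 empty vector K562 samples was hybridised to Affymetrix U133 Plus 2.0 arrays, per the labels' protocols. The authors deposited 1 linear intensity per probe set and array. How they were background-corrected, summarised and normalized, and with which software, is not given in the sources used here. A second table that the authors deposited, with 768 probe sets they selected, holds signed fold changes and group means, used here as scores of theirs. Groups and replicate numbers came from the sample titles. The 54613 probe sets outside the 62 AFFX controls were tested as log2(intensity + 16) with limma 3.58.1 in R 4.3.3 (lmFit, eBayes, 2-sided, Benjamini-Hochberg over all, threshold 0.05). The model held the group and the array set, which was rebuilt by clustering 45 spike-in probe sets. Fold changes are on the log2(value + 16) scale and understate those of dim probe sets. Precision is limited by the number of arrays. Probe sets were named from the platform annotation (41091 with 1 gene, 1801 with several, 11721 not listed), with 41037 symbols updated by Entrez ID through a RefSeq table (GRCh38.p14). The brightest probe set stood for a gene. Members and lists were chosen with earlier results of these data known. Named genes were all members, CTCF, called genes of the other pathway list and its 3 smallest p-values in each direction. Fits were tested on simulated data. The replicate numbers of the titles were not used as pairs. Deviations of the same-numbered arrays correlated at -0.68 and 0.70, and those of CTCF array 4 and empty vector array 1 at 0.89. With 2 empty vector arrays their deviations mirror each other, so these signs follow the array sets and cannot decide on a pairing. Alternatives are listed in the closing section.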

Additional observations from a re-analysis of the deposited data

Results flagged for a closer look

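Of 107 probe sets of members, CTCF and named genes tested for a far value among the 4 CTCF arrays, 11 had one, and chance gives such a value in about 1 in 20 groups. CTCF array 4, the only CTCF array of the smaller set, was the far one in 9 of the 11. In these 9 it was below the other CTCF arrays. The values on CTCF array 4 were 48.6 for TET2 227624_at (others 147 to 164), 6.3 for ZBTB33 214631_at (others 46.1 to 53.1) and 14.7 for EZH1 239198_at (others 46.3 to 52.7). RBBP4 read 1523 on that array by 210371_s_at (others 2765 to 3116) and 1905 by 217301_x_at (others 2825 to 3003). JARID2 240674_at read 18.1 (others 35.3 to 39.6), CBX2 215989_at 26 (others 55.3 to 61.5) and ASXL1 212238_at 161 (others 327 to 374). XRCC1 203655_at read 195 (others 273 to 281). Empty vector array 1, of the same array set, read below empty vector array 2 for all 9. On the other arrays, CTCF itself read 1614 on CTCF array 2 (others 1311 to 1332), and DNMT3B read 2253 on CTCF array 1 (others 1802 to 1860).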

How the results depend on the processing

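The members' median change stayed between -0.13 and 0.03 in every setting tried. Member probe sets called numbered 0 with no array set block, 0 with pseudocount 1, 2 with median centring, 8 with dim probe sets left out, 7 with pseudocount 64, 9 with a variance trend and robust moderation and 2 with array weights, and 0 with any 1 array left out. Other pathway genes called numbered 0 with no array set block, 2 after quantile normalization, 4 with dim probe sets left out, 0 with pseudocount 1, 3 with pseudocount 64, 4 with trend and robust moderation, 3 with array weights, 3 with gene means and 0 with any 1 array left out. All probe sets called numbered 6 with no array set block, 2642 with dim probe sets left out, 2 with pseudocount 1, 2140 with pseudocount 64, 2567 with trend and robust moderation, 1913 with array weights and 0 to 762 with 1 array left out. Member genes called numbered 2 with gene means. CTCF changed by 1.34 with no array set block and 1.31 with pseudocount 1, both no longer past the threshold, and by 1.14 to 1.51 with 1 array left out (adjusted p 0.0476 to 0.398), where it passed only without CTCF array 1. The replicate block treats equal replicate numbers as a pairing, which was not established. With that block 0 member probe sets, 0 other pathway genes and 0 of all probe sets were called. The members' median was then 0.03 and CTCF changed by 1.41. The cause of these shifts was not tested. Of 33 member probe sets with an unadjusted p under 0.05, 31 kept their sign in every setting that held them, 14 or 15 of them. These 33 were picked by their p on the same arrays that the settings refit, so this count is only a description. Counting probe sets with several genes was added after seeing the data. The 2 empty vector arrays limit the precision.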
